A study of Drosophila melanogaster with 2 samples.

Results

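Isolated peaks of the GAGA factor were the called binding regions of this protein that had no other called region within 20 kb on either side. They were taken from the peak list of 1 chromatin immunoprecipitation sequencing (ChIP-seq) sample of Kc cells, a Drosophila melanogaster line derived from embryos. The ChIP sample used the antibody KW3-Trl-D2, and 1 input sample of chromatin without antibody was its control; neither was treated, and the input was not analysed here. The labels name no genotype, transgene or tag for these samples. Across X and the autosomal arms 2L, 2R, 3L and 3R, 585 of 3787 peaks were isolated, 15.4% of them (exact binomial interval 14.3 to 16.6%). The whole list held 3842 peaks. The other 3202 peaks of the 5 arms are those that had a neighbour closer than 20 kb, together with the first and last peak of each arm. The members were chosen by the gaps between peaks, so the gaps below are a description. Scores and widths did not enter the choice, but they come from the same peak calls.

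The GAGA factor is encoded by Trithorax-like (Trl). It binds GAGA elements through a zinc finger, and its BTB domain lets molecules join into complexes that bind several elements together. It is known for keeping nucleosomes away from promoters, among them those of heat shock genes with paused polymerase, and for acting at homeotic genes and Polycomb response elements. It is known to bind clustered elements jointly, so the peaks that stand alone were set beside those with close neighbours.

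With 1 list and no replicate list, no difference between isolated and other peaks was tested. Intervals below are 95% binomial intervals, exact for shares and on ranks for medians. They treat peaks as independent, cover the error of counting peaks alone, and hold no error between cultures or libraries. The read depth behind the list is unknown. A region under the calling threshold is not listed, so a peak counted as isolated may have unlisted weaker neighbours. Neither the sequence under the peaks nor the genes beside them were analysed here.

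Isolated peaks had lower scores and were narrower than other peaks at the middle of the distribution, while their scores spanned the same range. The median score of isolated peaks was 266 (interval 219 to 337), against 413 (376 to 458) for other peaks. The quartiles of the score were 105 and 926 for isolated peaks, and 125 and 1355 for other peaks. A score above the median of the other peaks was held by 241 isolated peaks, 41.2% of them. The median width was 478 bp (457 to 503) for isolated peaks and 532 bp (522 to 544) for other peaks. Of the isolated peaks, 242 (41.4%) were wider than the median other peak. The values of both sets thus overlapped widely, and the medians stood apart by more than their intervals.

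**Figure D1:**
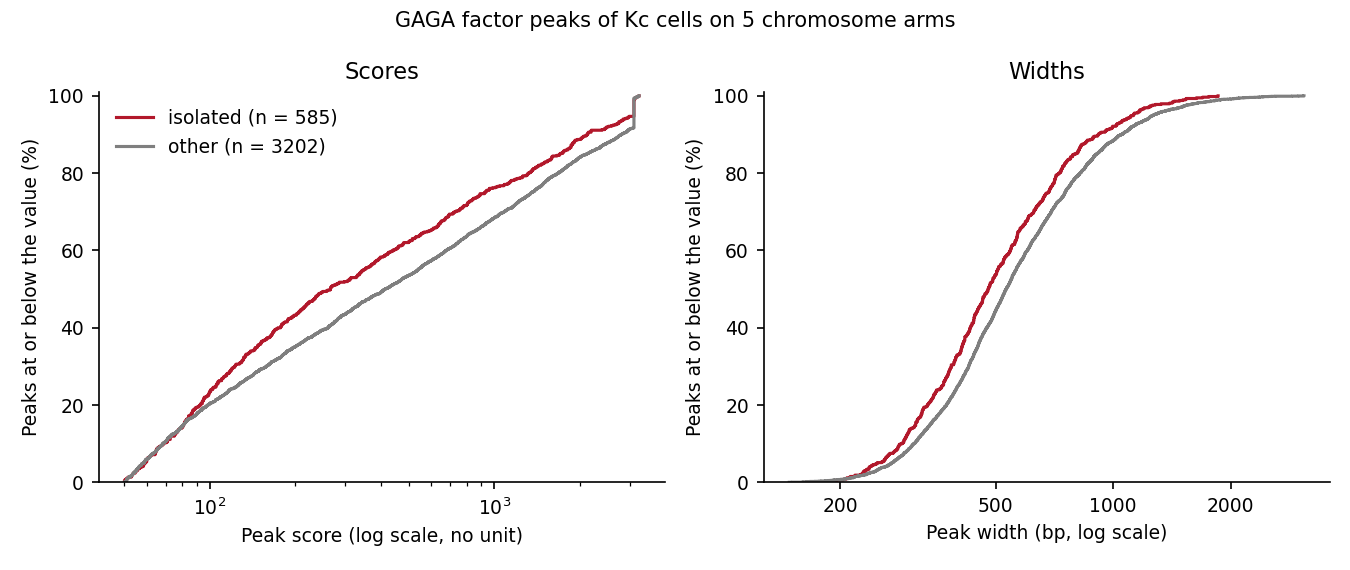
Cumulative share of peaks (vertical axis, %) at or below each score (left, log axis) and each width in bp (right, log axis), for 585 isolated peaks in red and 3202 other peaks in grey. The red curves lie left of the grey ones over most of the range, with medians of 266 and 413 for the score and 478 and 532 bp for the width, while the curves of the score run together at its low end and both step up at 3100.

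At the upper end, strong peaks were fewer among isolated peaks but not missing. A score of 3100 or more was reached by 31 isolated peaks (5.30%, interval 3.63 to 7.44%) and by 263 other peaks (8.21%, 7.29 to 9.22%), against 7.76% of all peaks of the 5 arms. Exactly 3100, a value that many peaks of this list share, was the score of 25 isolated peaks (4.27%) and of 241 other peaks (7.53%). At this same score the isolated peaks had a median width of 997 bp (918 to 1096), and the other peaks one of 1086 bp (1026 to 1181). The intervals overlapped for these widths and for the share at 3100 or more. A width of 1000 bp or more was found in 46 isolated peaks (7.86%, 5.81 to 10.3%) and in 372 other peaks (11.6%, 10.5 to 12.8%), with 11% over all peaks. The widest isolated peak had 1859 bp, and the widest other peak had 3086 bp. Low shares were also found in the 358 other peaks 10 to 20 kb from the nearest. Of these, 3.35% (1.74 to 5.78%) scored 3100 or more and 8.94% (6.19 to 12.4%) were 1000 bp or wider.

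At the lower end, narrow peaks and low scores both made up more of the isolated peaks than of the others. A width under 300 bp was found in 76 isolated peaks (13.0%, 10.4 to 15.99%) and in 278 other peaks (8.68%, 7.73 to 9.71%), with 9.35% over all peaks. A score under 100 was found in 137 isolated peaks (23.4%, 20.04 to 27.1%) and in 652 other peaks (20.4%, 19.0 to 21.8%), with 20.8% over all peaks. The intervals for low scores overlapped, and those for narrow peaks did not.

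Ranked by score and cut into 10 parts of nearly equal size, the list held more isolated peaks in its lower parts than in its upper ones. In the part with the lowest scores, 50.11 to 68.38, 15.3% of peaks were isolated (11.9 to 19.4%), close to the 15.4% of all peaks. The share was 18.7% in the next part and 20.8% (16.9 to 25.3%) in the third, with scores from 97.03 to 148.84. It was 19.5% (15.7 to 23.9%) in the fourth, from 149.06 to 237. In the 6 parts above a score of 237 it ran between 11.1 and 15.0%, and it was 11.1% (8.10 to 14.7%) in the part with the highest scores. The intervals of these low parts overlapped. By quartiles of the score, the share was 18.2% (15.8 to 20.8%) in the lowest, up to 119.17, then 17.2%, 13.8% and 12.6% (10.5 to 14.8%) in the highest. Ranked by width, the share was 21.6% (17.5 to 26.1%) in the narrowest part, up to 304 bp, and 11.1% (8.10 to 14.7%) in the widest, from 1028 bp on.

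**Figure D2:**
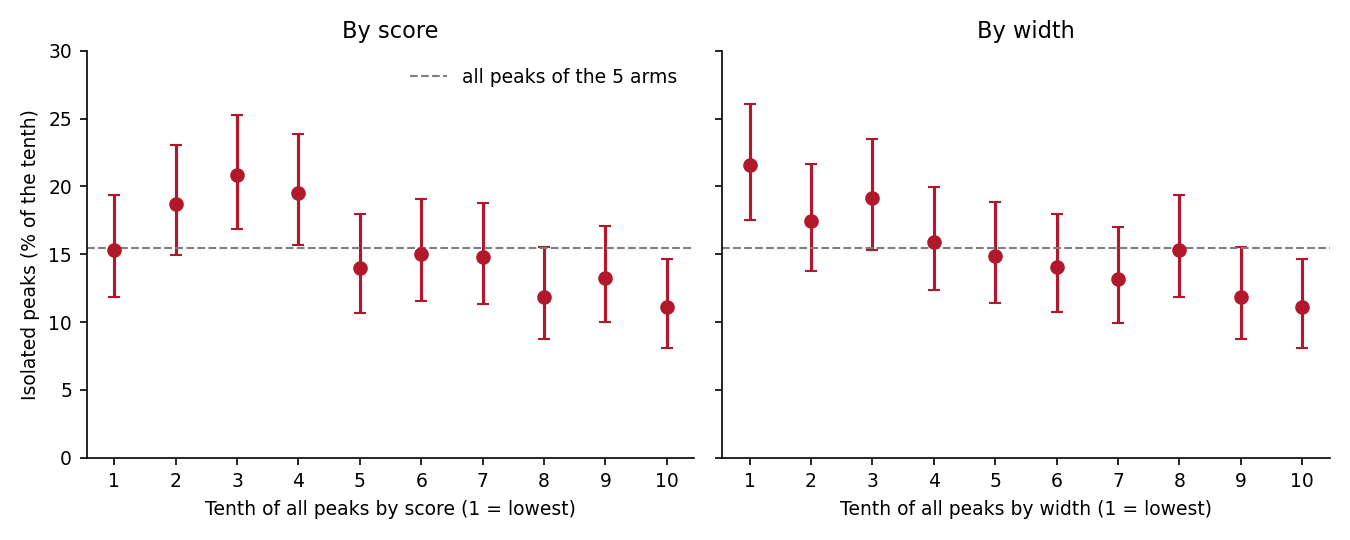
Share of peaks that were isolated (vertical axis, % with exact 95% binomial intervals) in each of 10 parts of the list, ranked from lowest to highest score (left) and width (right); the dashed line marks the 15.4% of all peaks. By score the share is 15.3% in the lowest part, reaches 20.8% in the third and is 11.1% in the highest; by width it is 21.6% in the narrowest part and 11.1% in the widest.

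Width and score went together in isolated peaks much as they did in the rest. Spearman's rho was 0.74 and Pearson's r 0.68 over the 585 isolated peaks, against 0.73 and 0.68 over the other peaks. These coefficients describe regions of 1 list whose width and score come from the same reads. Within quartiles of the score set on all peaks of the 5 arms, the difference in median width, -54 bp over all scores, was nearer to 0 in 3 quartiles and larger in the highest. In the lowest quartile the median width was 336.5 bp for isolated peaks (320 to 367) and 364 bp for other peaks (351 to 378). In the second it was 428 bp (408 to 443) for isolated peaks and 459 bp (450 to 470) for other peaks. In the third quartile the direction was the opposite, with 607 bp (565 to 663) for isolated peaks and 592 bp (577 to 607) for other peaks. In the highest it was 787 bp (711 to 854) for isolated peaks and 853 bp (831 to 883) for other peaks. The isolated peaks were thus narrower in 3 of 4 quartiles, with isolated minus other medians of -27.5, -31 and -66 bp. Only in the second did the intervals stay apart. The quartiles are wide, so scores could still differ between the sets within them.

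The distance of 20 kb did not mark a step in the score. By distance to the nearest peak, the median score was 529 (458 to 588) under 500 bp, 451 (356 to 557) from 500 bp to 2 kb, and 369 (263 to 463) from 2 to 5 kb. It was 329 (262 to 433) from 5 to 10 kb and 260 (219 to 313) from 10 to 20 kb. Among isolated peaks it was 274 (223 to 360) from 20 to 50 kb and 220 (169 to 367) at 50 kb or more. The medians were lower class by class up to 20 kb, and the isolated classes lay at the level of the class just under 20 kb. The difference in score between isolated and other peaks was largest against peaks with a close neighbour. Peaks less than 2 kb from another had a median score of 495 (443 to 557). Peaks 2 to 20 kb from the nearest had one of 303 (267 to 361), whose interval overlapped that of the isolated peaks.

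**Figure D3:**
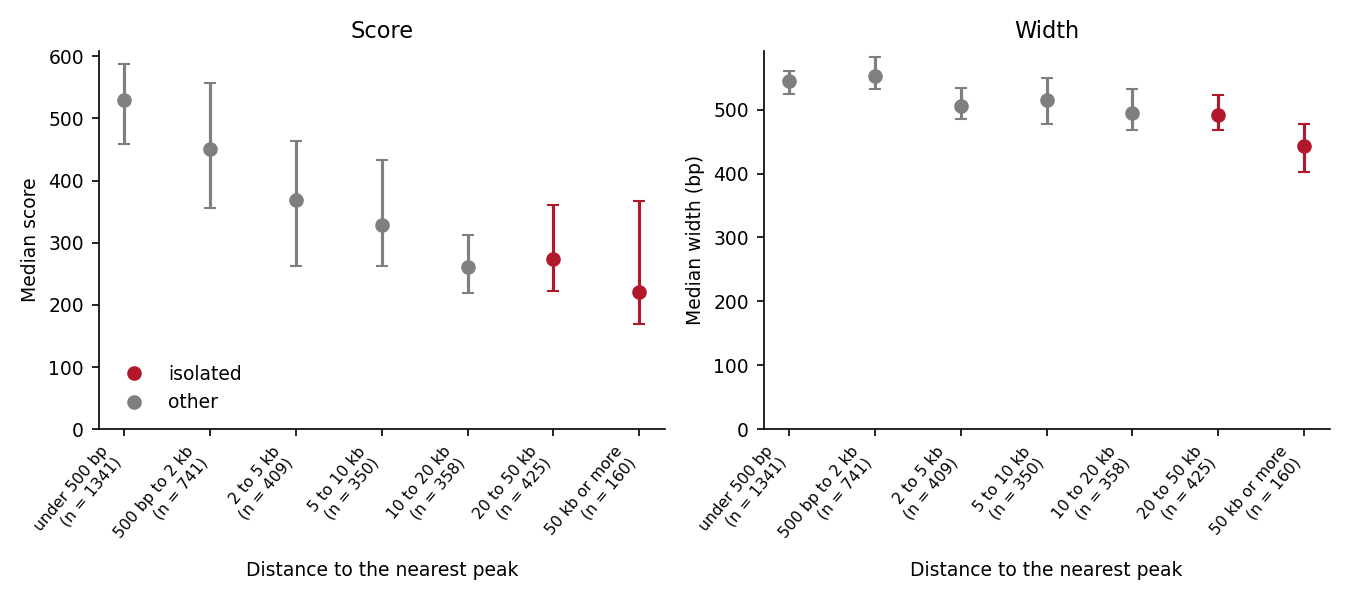
Median score (left) and median width in bp (right), with 95% rank intervals, of peaks in 7 classes of distance to the nearest peak; isolated peaks are red and other peaks grey, and the first or last peaks of an arm with a single gap of 20 kb or more are left out. The median score is 529 in the class under 500 bp and 260 at 10 to 20 kb, beside 274 and 220 in the isolated classes; the median width is 544 bp in the first class and 442.5 bp in the last.

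Width followed the distance less closely. The median was 544 bp under 500 bp, 552 bp from 500 bp to 2 kb, 506 bp from 2 to 5 kb, 515.5 bp from 5 to 10 kb and 495 bp from 10 to 20 kb. Isolated peaks had a median of 492 bp (468 to 523) from 20 to 50 kb and 442.5 bp (402 to 478) at 50 kb or more. Only this last class had an upper bound below the lower bounds of all 3 classes under 5 kb. Among the isolated peaks, the smaller gap had a rho of -0.05 with the score and -0.11 with the width (585 peaks of 1 list, a description).

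The medians were also ordered by the number of empty sides. Those empty for 20 kb on both sides, the isolated ones, had the median score of 266 given above. The 1553 peaks empty for 20 kb on 1 side had a median of 354 (316 to 406), and the 1639 peaks empty on neither side had one of 478 (424 to 544). Their median widths were 478, 503 and 556 bp in the same order, with intervals of 491 to 520 bp for 1 empty side and 544 to 572 bp for none. A score of 3100 or more was found in 5.30% of peaks with both sides empty, 7.02% with 1 and 9.40% with none. The intervals of the isolated peaks were 219 to 337 for the score and 457 to 503 bp for the width. They overlapped those for 1 empty side, as did the interval of the share at 3100 or more. Only the peaks empty on neither side stood apart from the isolated ones in score, width and this share.

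The smaller gap was 50 kb or more in 160 isolated peaks and 100 kb or more in 35. The 160 included 9 peaks at 3100 or more (5.63%, against 5.18% of isolated peaks at 20 to 50 kb) and 15 of 1000 bp or more (9.38%, against 7.29%). The intervals of both shares overlapped those at 20 to 50 kb. In the 35 peaks at 100 kb or more the median score was 151 (92.9 to 230) and the median width 353 bp (324 to 450). Their scores ran from 54.65 to 1362.84, and 14 of them scored under 100 (40%, exact interval 23.9 to 57.9%). This share was 23.4% in all isolated peaks and 20.8% over all peaks of the 5 arms. The 35 had been picked by distance after the list was seen, and their intervals are wide.

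The 5 peaks with the largest smaller gap lay on 2L (4 peaks) and 3L (1 peak). The first lay on 2L from 10457537 to 10457795 in BDGP5, with the nearest peak 236.456 kb away, a width of 259 bp and a score of 87.07. The second, on 2L from 17102483 to 17102744, was 221.074 kb from the nearest peak and had a score of 56.04. The peaks on 2L from 10756128 to 10756470 (score 114, width 343 bp) and from 10220765 to 10221080 (score 54.65, width 316 bp) are the direct neighbours of the first. The gaps they share with it are their larger ones (298.332 and 236.456 kb). They are ranked by the gaps on their other sides (210.757 and 210.472 kb). The fifth differed from the others. It lay on 3L from 4975959 to 4976737, was 200.494 kb from the nearest peak, and had a width of 779 bp and a score of 802.69. On the remaining arms the farthest peaks were again low in score. On X it scored 54.9, spanned 21464871 to 21465101 and was 192.796 kb from the nearest peak. On 2R it scored 86.8, spanned 19091418 to 19091646 and was 191.208 kb away. On 3R it scored 87.25, spanned 23264091 to 23264414 and was 141.457 kb away.

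The 5 isolated peaks with the highest scores had smaller gaps between 20.312 and 54.981 kb. The highest score, 3233.06, which peaks with closer neighbours also reached, was held by an isolated peak on 3R from 11301612 to 11302424. It was 813 bp wide, with 54.981 and 60.346 kb to its neighbours. The second, scored 3183.54, spanned 1283 bp of 2L (21827975 to 21829257). The third, scored 3160.04, spanned 1541 bp of 3R (4805681 to 4807221). Both were about 32 kb from the nearest peak (32.306 and 32.147 kb). On 3L the strongest lay from 2191835 to 2192677 (score 3123.19, width 843 bp) and from 14543911 to 14544794 (score 3116.29, width 884 bp). The first of these was a near-threshold member, 20.312 kb from one neighbour and 207.538 kb from the other. On 2R and X no isolated peak scored above the shared 3100. The widest at that score lay on 2R from 15116320 to 15117714 (1395 bp) and on X from 10440169 to 10442027 (1859 bp).

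The peak on X was also the widest of all isolated peaks. It was followed by a peak of 1759 bp on 2L (3301748 to 3303506, score 2140.07) and another of 1696 bp on 3R (13542611 to 13544306, score 2673.53). These 3 all scored above 2000, and the 3 narrowest scored under 100. They lay on 3L from 8418283 to 8418453 (171 bp, score 51.53), on 2R from 17730653 to 17730839 (187 bp, score 99.51) and on 3R from 11139787 to 11139981 (195 bp, score 62.44). The 3 lowest scores, 50.14, 50.26 and 50.29, all fell on 2R, in peaks from 11905047 to 11905420, from 3306032 to 3306305 and from 18504994 to 18505288.

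At the threshold, the members just inside had smaller gaps of 20010, 20010 and 20014 bp. The first 2 are neighbours on 2L, from 18732777 to 18733354 (score 310.96) and from 18753365 to 18753868 (score 203.17), and the third lay on 2R from 5866571 to 5866928 (score 183.8). The peaks just outside had smaller gaps of 19778 bp on 2L from 107717 to 108465 (score 2972.23), 19667 bp on X from 14865077 to 14865365 (score 126.77) and 19661 bp on 2R from 3239847 to 3240374 (score 1776.62).

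Isolated peaks were few but bordered most of the sequence between peaks. The smaller of the 2 gaps had a median of 35.3 kb (quartiles 26.7 and 54.5 kb) and the larger one a median of 80.02 kb (quartiles 52.5 and 135 kb). The largest gap beside an isolated peak was 817 kb. Gaps that touched an isolated peak were 936 of 3782 (24.7%), and they added up to 71.7 Mb, or 61.0% of the 117 Mb of the 5 arms up to their last peaks. The isolated peaks themselves covered 324 kb, against 1999 kb for the other peaks, so they held 13.9% of the covered sequence.

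The neighbours of isolated peaks were in part isolated themselves. Both neighbours were isolated too for 89 of them (15.2%), 1 neighbour for 290 (49.6%) and neither for 206 (35.2%). Neighbours share a gap, so these counts are not independent of the rule. When peaks closer than 20 kb are joined, 43.0% of the resulting islands are single peaks, so isolated neighbours are common. Whether the counts depart from a random order of islands was not tested. Consecutive isolated peaks formed 145 rows of 2 or more, of which 10 held 5 or more. The longest rows held 6 peaks each. That on 2R from 4685662 to 5118855 spanned 433 kb, with scores from 52.95 to 714.74 and a median of 170. That on X from 9004512 to 9178860 spanned 174 kb, with scores from 159.13 to 3100 and a median of 344. Low and high scores thus stood side by side in the row on X, and the row on 2R held no score above 714.74. The row with the greatest span, chosen after its value was seen, held 5 peaks over 958 kb on 2L from 10009778 to 10967554, with a median score of 87.07, and 3 of the 5 most distant peaks lie in it.

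When peaks closer than 20 kb were joined, the list formed 1368 islands, and single peaks were the most common kind. There were 588 islands of 1 peak (43.0%), namely the 585 isolated peaks and 3 at arm ends. Islands of 2 peaks numbered 290, those of 3 to 5 peaks 343 and those of 6 or more 147, with up to 35 peaks. Taking the median score within each island, the median over islands was 265 in islands of 1, 613 in islands of 2, 428 in islands of 3 to 5 and 503 in islands of 6 or more. Single-peak islands had the lowest value of the 4 kinds, and islands of 2 the highest. This order is not independent of island size. The value is a single score in islands of 1 and the mean of both scores in islands of 2. The top score of an island had a median of 265 in islands of 1, 860 in islands of 2, 1603 in islands of 3 to 5 and 3100 in islands of 6 or more, although more peaks in an island give more chances of a high one.

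By arm, the number of isolated peaks per Mb varied less than that of other peaks. The number of isolated peaks was 106 on 2L, 112 on 2R, 126 on 3L, 135 on 3R and 106 on X. Per Mb up to the last peak of the arm this was 4.63 on 2L (exact Poisson interval 3.79 to 5.60), 5.30 on 2R (4.37 to 6.38), 5.44 on 3L (4.53 to 6.47), 4.84 on 3R (4.06 to 5.73) and 4.74 on X (3.88 to 5.74). All 5 intervals overlapped. The other peaks ran from 22.9 per Mb on 2L (21.02 to 24.99) to 33.1 per Mb on X (30.8 to 35.6), whose intervals did not overlap. As a share of the arm's peaks, isolated peaks made up 12.5% on X (10.4 to 15.0%) and 16.3% on the 4 autosomal arms combined (15.0 to 17.7%), from 15.7% on 3R to 16.9% on 3L. A denser arm leaves fewer peaks with wide gaps, so neither this share nor the number per Mb is independent of the density of the arm.

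**Figure D4:**
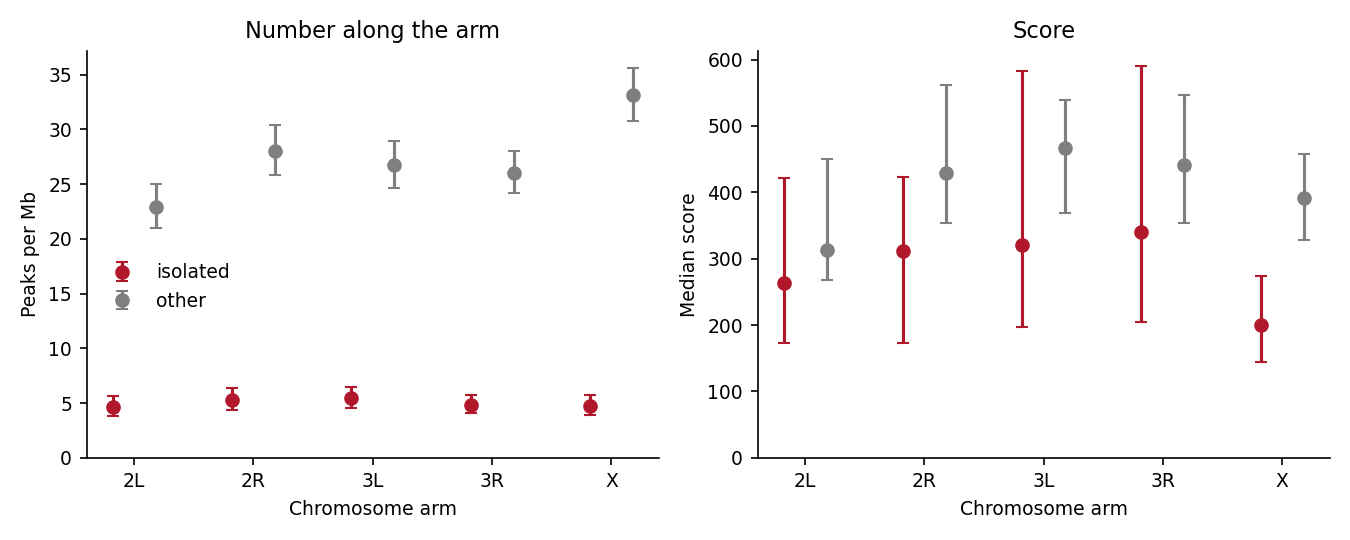
Peaks per Mb (left, with exact 95% Poisson intervals) and median score (right, with 95% rank intervals) on 5 chromosome arms, isolated peaks in red and other peaks in grey. Isolated peaks run from 4.63 to 5.44 per Mb and other peaks from 22.9 to 33.1 per Mb; the median score of isolated peaks is below that of other peaks on each arm, with intervals that stay apart on X.

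The lower score and the smaller width of isolated peaks were found on each of the 5 arms. The difference was largest on X, with a median score of 200 (144 to 274) for isolated peaks and 392 (328 to 457) for other peaks. It was smallest on 2L, with 263 (174 to 422) for isolated peaks and 312 (267 to 451) for other peaks. On the arms between them the median of isolated peaks and that of other peaks were 311 and 429 on 2R, 321 and 466 on 3L, and 340 and 442 on 3R. The intervals of the score overlapped on all 4 autosomal arms. The median width on X was 429.5 bp (402 to 462) for isolated peaks and 520.5 bp (501 to 544) for other peaks. On 2R it was 476 bp (438 to 549) for isolated peaks and 571 bp (546 to 597) for other peaks, and on 3R it was 503 bp (477 to 570) for isolated peaks and 527.5 bp (511 to 554) for other peaks. Without X, the median score of isolated peaks minus that of other peaks was -115 in place of -147, and the same difference in median width was -39.5 bp in place of -54 bp. Taken between the outer bounds of the 2 medians, the difference in score then ran from -245 to 13.7, against -240 to -38.9 with X, and that in width from -80 to 1 bp, against -87 to -19 bp with X. The separation of the medians beyond their intervals was thus lost without X.

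Along the arms, isolated peaks were found in similar numbers from telomere to centromere. The gap rule leaves few members in dense stretches, so these numbers are not independent of it. Each arm was cut into 5 parts of equal length, from the telomere to the centromere, with the end of its last peak taken as its length. From the first to the last part, isolated peaks numbered 123, 115, 125, 106 and 116, or 21.03, 19.7, 21.4, 18.1 and 19.8% of them. The other peaks numbered 616, 666, 643, 736 and 541, or 19.2, 20.8, 20.1, 23.0 and 16.9% of them. The part next to the centromere thus held 19.8% of isolated peaks (16.7 to 23.3%) and 16.9% of other peaks (15.6 to 18.2%), and the part before it 18.1% (15.1 to 21.5%) and 23.0% (21.5 to 24.5%). In the fourth part the 2 intervals stayed apart by less than 0.1 percentage points, and in the other 4 parts they overlapped. Single arms departed from this picture in places chosen after their values were seen. In the second part of 3L, 29 of its 100 peaks were isolated (29.0%, 20.4 to 38.9%), and in the telomeric part of 3R 35 of 124 were (28.2%, 20.5 to 37.0%). The share was lowest in the fourth part of 2R, at 9.57% (5.77 to 14.7%).

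**Figure D5:**
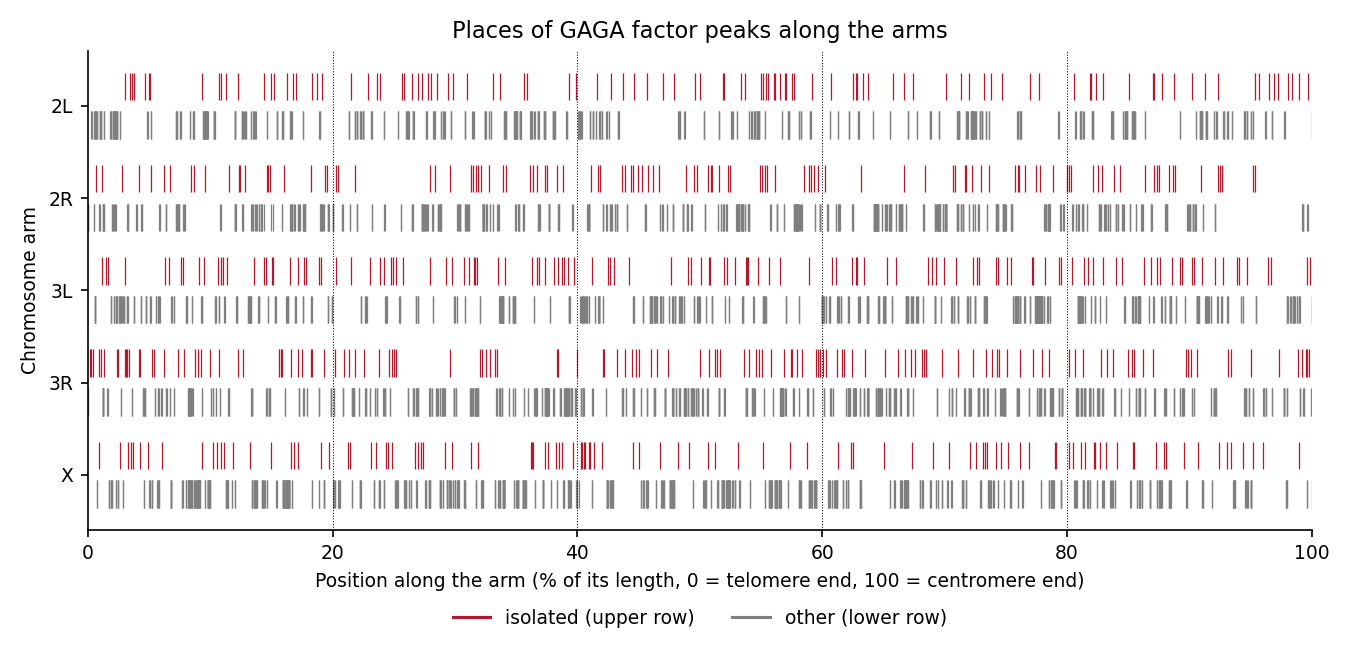
Places of isolated peaks (red, upper row of each arm) and other peaks (grey, lower row) along 5 chromosome arms, as % of the length up to the last peak from the telomere end (0) to the centromere end (100); dotted lines cut each arm into 5 parts. Red ticks are spread along every arm, with 106 to 125 isolated peaks in each of the 5 parts summed over arms. Grey ticks form empty stretches and dense groups, and the gap rule does not allow dense groups of red ticks.

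The difference in median score was not the same in each part of the arms. No intervals were computed for the medians of these parts, whether summed over arms or within single arms. Whether the parts differed beyond the error of counting peaks was thus not assessed. In the telomeric part the median score was 340 for isolated peaks and 370 for other peaks, and in the third part it was 328 for isolated peaks and 354 for other peaks. The medians were farther apart in the fourth part, with 233 for isolated peaks and 515 for other peaks, and in the centromeric part, with 235 for isolated peaks and 473 for other peaks. In the second part they were 215 for isolated peaks and 394 for other peaks. Over the 25 parts of single arms, isolated peaks had the lower median score in 21. The 4 exceptions lay on 2L and 3R. In the telomeric part of 2L the median was 515 for 21 isolated peaks and 192 for 122 other peaks. On 3R it was 746 for isolated peaks and 491 for other peaks in the centromeric part, 532 and 469 in the third part, and 311.85 and 311.66 in the telomeric part.

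In 232 windows of 500 kb, isolated peaks averaged 2.47 ± 1.53 and other peaks 13.7 ± 8.38 (SD over windows), and 213 windows held at least 1 isolated peak. The SD divided by the mean was 0.62 for isolated and 0.61 for other peaks. The error of counting peaks makes up more of this ratio at a small mean. The 2 ratios thus do not show that both sets were spread alike. Windows with 0 to 5 other peaks held 2.42 ± 1.59 isolated peaks (31 windows), and those with 6 to 10 held 2.76 ± 1.78 (59 windows). Windows with 11 to 15 other peaks held 2.70 ± 1.48 (63 windows), and those with 16 to 20 held 2.26 ± 1.14 (39 windows). With 21 to 48 other peaks the number was 1.93 ± 1.38 (40 windows). The mean was highest with 6 to 10 other peaks and lower in each fuller class, and the windows of all classes overlapped in their numbers. As a share of all peaks in the windows, isolated peaks made up 42.6% in the emptiest class and 6.49% in the fullest. The classes were set by the number of other peaks, which also enters the total, so this fall is largely fixed by the classing. The window with the most isolated peaks lay on X from 9000001 to 9500000 and held 8, beside 9 other peaks; it contains the row of 6 described above.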

How the data were processed

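Per the submitters' processing notes, reads were aligned with Bowtie to BDGP5; per the file headers, peaks were called with MACS. Versions, calling settings, duplicate handling and pooling were not given in the sources used here. Per the labels' protocols, chromatin was crosslinked in 1.8% formaldehyde for 15 minutes and sonicated for 15 minutes. The authors deposited 1 score per peak, whose scale the file does not state; it is their value and was used only within this list. Since the list holds no reads, depth and the precision it would give are unknown.

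Starts were converted to 1-based positions. A gap was the number of bases between neighbouring peaks, and no peaks overlapped. Peaks with gaps of 20000 bp or more on both sides were taken as isolated, and first and last peaks of arms were left out. Intervals were computed with SciPy 1.17.1 under Python 3.11.15; pandas 2.3.3, NumPy 2.4.6 and Matplotlib 3.10.9 were also used. The search for isolated peaks and the rank intervals were tested on simulated data. The members, classes and comparisons were chosen with earlier results of these data known. Peaks named are those with the highest and lowest scores, widths and gaps, over all arms and on each arm, and those nearest the threshold. Alternatives changed the gap, the score minimum, merging, gap definition, arm ends, arms and the peaks compared. The annotation table at hand is of another assembly and was not used.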

Additional observations from a re-analysis of the deposited data

How the results depend on the processing

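Of 64 recomputed values of the main results, 52 stayed within the interval of the value reported (for the number of peaks, within 1.5 times). These values include numbers, shares and medians of isolated peaks alone as well as differences. No difference between isolated and other peaks changed direction. The interval of the difference, between the outer bounds of the 2 medians, came to include 0 for the score at a gap of 50 kb (-262 to 4.95), without X (-245 to 13.7) and against other peaks at least 2 kb from the nearest (-136 to 72.7). For the width it did so without X (-80 to 1 bp) and against those same peaks (-68 to 14 bp). With a gap of 10 kb, 942 peaks were isolated (24.9%), and with a gap of 50 kb 160 were (4.22%), with a median width of 442.5 bp. With peaks scored under 100 left out, 20.2% were isolated, with a median score of 506 and a median width of 561 bp, which the score minimum itself raises. With peaks closer than 500 bp merged, 23.0% were isolated, with a median score of 354 and a median width of 544 bp, since merged peaks are wider and keep their highest score. Set against other peaks at least 2 kb from the nearest, the median score of isolated peaks differed by -36.2 in place of -147; the pairs of closer peaks are left out by construction. The difference in median width there was -28.5 bp, and over the alternatives it ran from -85.5 to -28.5 bp. The share of isolated peaks on X minus that on the autosomal arms, a difference added after seeing the data, ran from -5.85 to -1.48 percentage points. Its interval, -7.30 to -0.019 with the gap of 20 kb, included 0 at a gap of 50 kb (-3.36 to 0.64), at scores of 100 or more (-8.62 to 0.58), with merging (-9.45 to 0.15) and with arm ends judged on 1 gap (-7.26 to 0.042). No paired analysis was possible because the ChIP and the input were single samples, which also left no replicate to omit. GAGA elements and nearby genes were not run. Unknown depth limits what is called isolated.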

Other observations

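Outside the 5 arms, the same gaps were found on small chromosomes and scaffolds, which entered no comparison. On chromosome 4, a small chromosome rich in heterochromatin, 6 of 26 peaks had gaps of 20 kb or more on both sides. Their scores were 72.92, 1290.53, 1322.2, 239.98, 616.7 and 77.75 in order along the chromosome, and their widths ran from 165 to 535 bp. The 2 with the highest scores were neighbours, from 424906 to 425280 and from 445288 to 445704, 20007 bp apart. On the heterochromatin scaffold 3LHet 10 of 14 peaks met the same gaps, on 2RHet 2 of 4 and on Uextra, a set of unplaced sequence, 6 of 8. On 3RHet 0 of 2 and on U 0 of 1 did, where first and last peaks cannot qualify. Gaps on unplaced sequence depend on how it was joined in the assembly.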
